A study of Rattus norvegicus with 8 samples.

Results

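Dexamethasone and GW3965 were each given to rats alone and together, and the hepatic mRNA levels of the 4 resulting groups allow a direct question: did the effect of one compound depend on the other? The measure of that dependence is the interaction, the level in the combined group minus the Dexamethasone level minus the GW3965 level plus the vehicle level, all on the log2 scale. It was computed for every non-control probe set that exceeded its array's median signal on at least 2 of the 8 arrays. This kept 16253 of the 31042 non-control probe sets on the array. Of these, 12892 carried a single gene symbol and named 9829 genes.

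All rats were male Sprague-Dawley animals of 180 to 200 g. The vehicle group received neither compound, the Dexamethasone group (Dex below) received an intramuscular injection of 1.5 mg/kg, the GW3965 group received 50 mg/kg by gavage for 3 days, and the Dexamethasone+GW3965 group received both. Rats without GW3965 were gavaged for the same 3 days with its vehicle solution. Rats without Dexamethasone were injected with saline, and livers were taken 24 h after the injection. Each group had 2 arrays, hybridised from 5 µg of total RNA and lettered a and b. In the labels the a and b arrays carry the same liver number (1 for vehicle, 4 for Dex, 6 for GW3965, 8 for both), while the study's methods speak of 2 animals a group. The p-values below may therefore measure only the spread between arrays, and the level of a single animal of this outbred stock cannot be told apart from the effect of its treatment. Whole liver was used, so fewer cells of a type and less RNA per cell cannot be told apart either.

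Dexamethasone is a synthetic glucocorticoid. It binds the glucocorticoid receptor (GR, gene Nr3c1), which then moves to the nucleus, switches on genes of glucose output and amino acid breakdown in the liver and restrains inflammatory genes. GW3965 is an agonist of the liver X receptors (LXRs, genes Nr1h3 and Nr1h2), sterol sensors that pair with the retinoid X receptor (Rxra) and drive cholesterol export and fatty acid synthesis. If 2 compounds act independently, their fold changes multiply, and on the log2 scale their effects add. An interaction of 0 is that case, a value above 0 means that the combined group lay above the additive expectation, and a value below 0 means that it lay below it.

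The arrays were alike in quality. The spread was small, with a median difference between the arrays of a group of 0.070 to 0.089 log2 units. The 3′ to 5′ difference of the Gapdh control probe sets was 0.014 to 0.050 log2 units, and that of beta-actin was 0.93 to 0.97. The 9 hepatocyte markers had group means of 13.79 to 13.87, far above the array medians of 5.48 to 5.52.

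Of the 16253 probe sets, 3698 (22.8%) departed from additivity at an adjusted p under 0.05 by limma. At an unadjusted p under 0.05 there were 3668 above and 1951 below. The combined group lay above the expectation for 2571 (15.8%) and below it for 1127 (6.93%), so 69.5% of the departures were upward. After quantile normalization the split was 1823 above and 1593 below, or 53.4% upward, so the excess of upward departures depended on the scaling of the arrays. Among genes, each read on its brightest probe set, 1660 (16.9%) lay above and 718 (7.3%) below. Dex alone raised 18% of these genes and lowered 26.5%, and GW3965 alone raised 5.9% and lowered 15.9%. The departures were mostly modest, with a median size of 0.46 log2 units against a median standard error of 0.12, and 287 probe sets reached 2-fold, 167 above and 120 below. For comparison, 6806 probe sets (41.9%) differed between Dex and vehicle, 3325 (20.5%) between GW3965 and vehicle, 5980 (36.8%) between the combined group and vehicle, 5825 (35.8%) between the combined group and GW3965, and 3698 (22.8%, 2173 higher and 1525 lower) between the combined group and Dex.

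Antagonism, where a compound's effect became smaller in the presence of the other, was the most frequent form for the Dex effect. The Dex effect was smaller with GW3965 for 2066 of the 3698 probe sets. It still passed the test for 755 of them and no longer passed for 1311. Among probe sets that Dex raised and that showed an interaction, 238 had a smaller effect that still passed, 373 one that no longer passed, 79 a reversed and 246 a larger one. Among those it lowered, 517 had a smaller effect that still passed, 938 one that no longer passed, 295 a reversed and 102 a larger one. The GW3965 effect was smaller with Dex for 1209 probe sets and still passed for only 91. A further 797 probe sets responded to Dex only in rats that also received GW3965. Another 1401 responded to GW3965 only in rats that also received Dex, more than showed antagonism of the GW3965 effect.

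**Figure D1:**
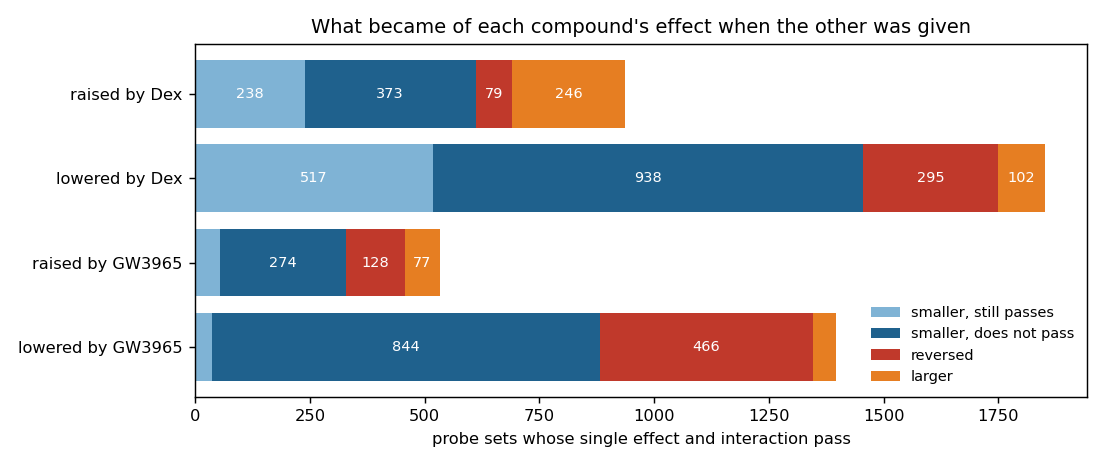
Number of probe sets (horizontal axis) whose single effect and interaction both passed, by compound and direction of the single effect. Colours give what the effect became when the other compound was present: smaller but still passing, smaller and no longer passing, of the opposite sign, or larger. Among the 1397 probe sets lowered by GW3965 alone, 466 were raised by it in Dex-treated rats.

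A sign reversal, where the effect passed in one direction alone and in the other direction with the second compound, was found for the Dex effect at 374 probe sets and for the GW3965 effect at 594. For 155 probe sets both effects reversed, and in 134 of these each compound alone lowered the level. Synergy, where the combined group lay beyond all 3 other groups in the direction of the departure, was found for 523 probe sets, with the combined group highest for 373 and lowest for 150. These classes overlap, since the 523 include probe sets with a reversed effect, among them probe sets of Tfrc and Slco1a4. Where both compounds alone lowered a probe set that showed an interaction, 930 of 934 lay above the expectation. Where both alone raised it, 259 of 286 lay below. These counts are a description, since the vehicle arrays enter both single effects and the interaction. The interaction could also come from 1 group that stood apart from 3 groups that did not differ pairwise. That group was vehicle for 241 probe sets, Dex for 334, GW3965 for 157 and the combined group for 179.

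The Dex effect alone and the Dex effect in GW3965-treated rats share no arrays. Over the 16253 probe sets they correlated with r = 0.68 and a slope of 0.59, as a description of probe sets that share arrays. How much smaller the effect looked with GW3965 depended on which setting chose the probe sets. The 317 probe sets raised at least 2-fold by Dex alone had a median effect of 1.40 alone and 1.07 with GW3965, and the 378 lowered had −1.33 and −0.76. Chosen instead by their change in GW3965-treated rats, the 266 raised had a median of 1.43 there and 1.27 alone, and the 200 lowered had −1.35 in both. The effects of GW3965 carried over less. The 71 probe sets it raised at least 2-fold alone had a median of 1.36, and of 0.21 with Dex. The 104 that it raised at least 2-fold in Dex-treated rats had a median of 1.32 there and 0.18 without Dex.

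**Figure D2:**
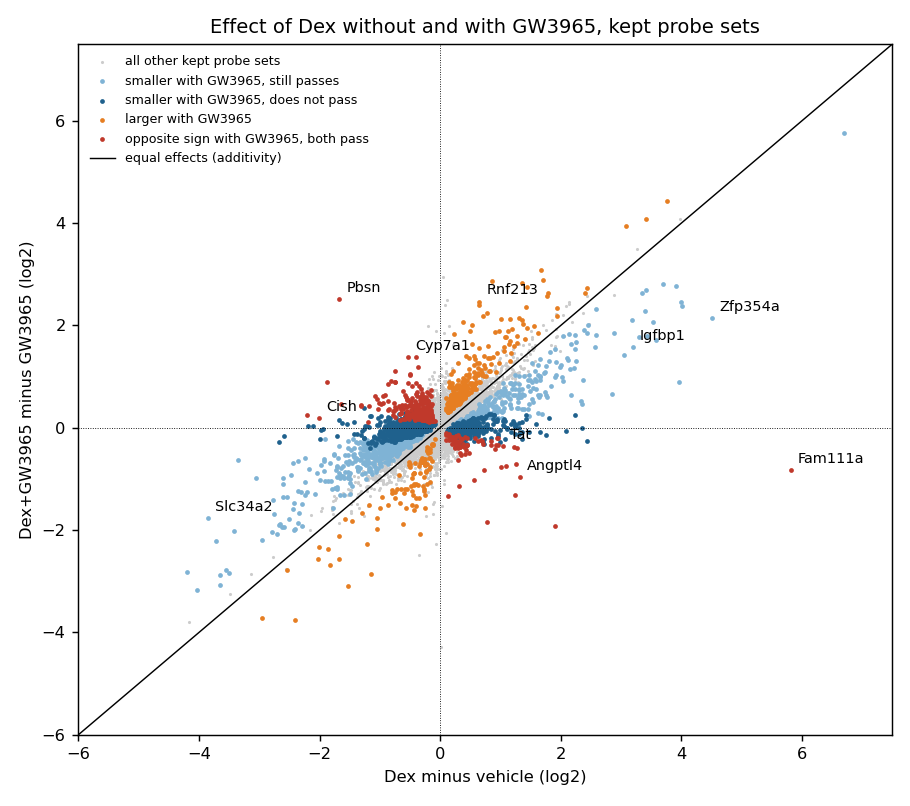
Each point is a kept probe set, with the Dex effect in rats without GW3965 on the horizontal axis and in rats with GW3965 on the vertical axis, both in log2 units. Points on the diagonal are additive. Blue points moved towards 0, orange points away from it, and red points changed sign, among them Pbsn (−1.68 alone, 2.52 with GW3965). Fam111a is also red (5.81 and −0.83), but its GW3965 and combined levels lay under 5.49, the mean of the array medians.

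Most of the genes that GR is best known to induce lay below additivity. Of 23 measured GR targets, 19 lay below the additive expectation and 2 above, against 7.3% and 16.9% of all genes. The other 2 did not pass. Over the 23 targets the median interaction was −0.77, against 0.03 over all genes. Dex raised 19 of them alone, against 18% of all genes. The median Dex effect over the list was 1.04 alone and 0.18 with GW3965. The effect was smaller with GW3965 for 14, reversed for 3 and larger for 2. The counts of 19 and 2 were the same after quantile normalization and where effects were added on the linear signal scale.

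Igfbp1, which encodes a secreted binder of insulin-like growth factors, read 7.91 and 8.17 in vehicle, 11.20 and 11.27 in Dex, 8.17 and 8.14 in GW3965, and 9.74 and 9.70 in the combined group. Both combined arrays thus lay between the Dex arrays and the other 4, well under the expectation of 11.35. The interaction was −1.62 ± 0.09 (SE, n = 2 arrays a group, limma adjusted p = 1.02e-09). Lpin1, a phosphatidate phosphatase of triglyceride synthesis, read 8.43 and 8.49 in vehicle, 11.50 and 11.53 in Dex, 8.53 and 8.55 in GW3965, and 9.93 and 9.99 in both. GW3965 alone did not move it past the threshold, yet the Dex effect was 3.05 without it and 1.42 with it (interaction −1.63 ± 0.07). Cdkn1a, the cell cycle inhibitor p21, followed the same order, with a Dex effect of 2.33 alone and 0.53 with GW3965. Sds, serine dehydratase of amino acid breakdown, went from 3.52 to 2.06.

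Tyrosine aminotransferase (Tat), the classical glucocorticoid-induced enzyme of the liver, went further. It read 11.02 and 11.03 in vehicle, 12.06 and 12.08 in Dex, 10.48 and 10.54 in GW3965, and 10.18 and 10.12 in both. Dex was the highest group and the combined group the lowest, with no overlap between groups. Dex raised Tat by 1.04 alone and lowered it by 0.36 in the presence of GW3965 (interaction −1.40 ± 0.06, limma adjusted p = 8.08e-12). Angptl4, an inhibitor of lipoprotein lipase, rose with either compound, from 8.66 and 8.71 in vehicle to 10.04 and 9.98 with Dex and to 10.33 and 10.25 with GW3965. With both it read only 9.37 and 9.27, above vehicle but below each single treatment, so that the effect of each compound changed sign in the presence of the other (interaction −2.29 ± 0.07, adjusted p = 6.24e-13). Ddit4, an inhibitor of mTOR signaling, was the third GR target with a reversed Dex effect, 0.44 alone and −0.34 with GW3965.

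Other members had little Dex effect left in GW3965-treated rats. Nfkbia, which encodes the inhibitor of NF-κB, rose by 1.11 with Dex alone and had a Dex effect of −0.01 with GW3965. Cebpb, a transcription factor of the acute phase, had 1.23 and −0.13. Per1 of the circadian clock had 0.73 and 0.02. Named here after their values were seen, Fkbp5 had 3.18 and 2.12, Tsc22d3 (GILZ) 1.57 and 0.95, and Dusp1 0.96 and 0.18. The exceptions were Mt2A, a metallothionein, with a larger Dex effect in GW3965-treated rats (1.77 alone, 2.58 with GW3965, interaction 0.81 ± 0.16), Glul (interaction 0.53 ± 0.06, lowered by Dex alone), and 2 genes that did not pass, Tdo2 (0.03 ± 0.06) and Bcl6 (0.01 ± 0.08). Tdo2 encodes tryptophan dioxygenase, and its Dex effect was 0.97 alone and 1.00 with GW3965. In the RefSeq promoters, windows of 300 bases around the gene start in build GRCr8, the letters ACANNNTGT of a glucocorticoid response element were found, over both strands, for 3 of the 20 GR targets with an entry and for 6.86% of all 33469 promoters. Among the 16 GR targets below additivity with an entry it was 1 (6.25%).

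**Figure D3:**
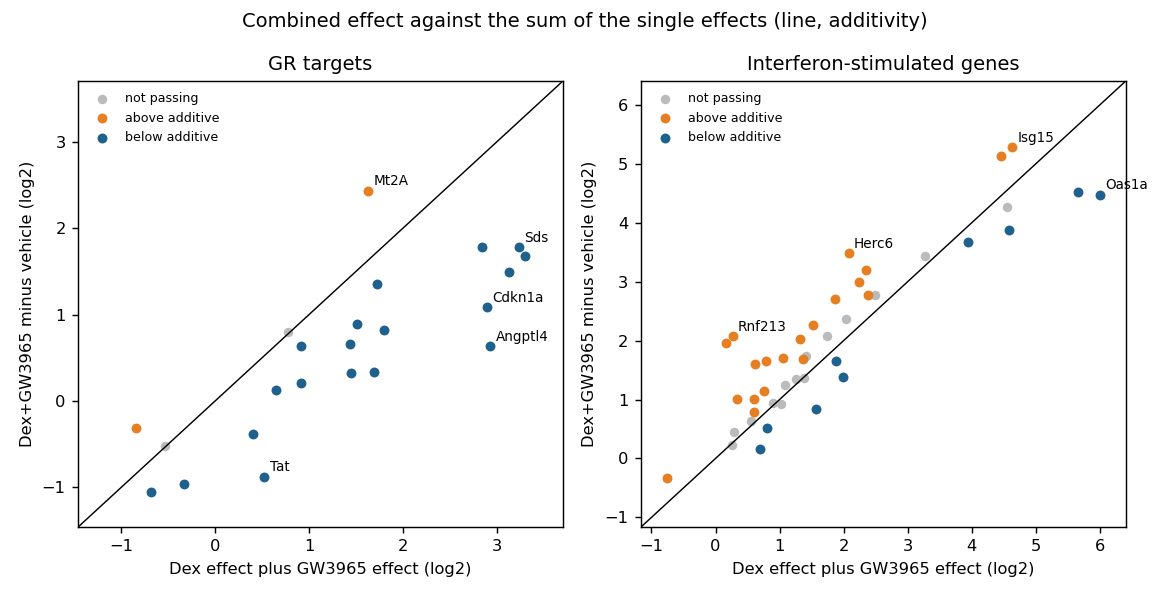
Combined effect (Dex+GW3965 minus vehicle, vertical axis) against the sum of the single effects (horizontal axis), both in log2 units, for 23 GR targets (left) and 43 interferon-stimulated genes (right). The line marks additivity, and points are coloured by the direction of a passing interaction. Most GR targets lie below the line, and the interferon-stimulated genes lie on both sides of it.

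Interferon-stimulated genes, which encode antiviral proteins and sensors, departed in both directions, more often upward. Of 43 measured, 20 lay above the expectation and 9 below, against 16.9% and 7.3% of all genes. The other 14 did not pass, and the median interaction over the 43 was 0.31. Dex alone raised 37, against 18% of all genes, and GW3965 alone 33, against 5.9%. The combined group was the highest of all groups beyond the test threshold, with an upward interaction, for 18 of the 43, compared with 227 of all 9829 genes. The Dex effect was larger with GW3965 for 16 and smaller for 11. Where effects were added on the linear scale instead, 30 lay above and 4 below.

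Rnf213, a large ubiquitin ligase, read 8.40 and 8.35 in vehicle, 9.05 and 8.996 in Dex, 8.07 and 7.90 in GW3965, and 10.43 and 10.48 in both. The combined arrays stood above all others although GW3965 alone lowered the gene on this probe set (interaction 1.81 ± 0.08, adjusted p = 6.55e-11). A second probe set of Rnf213 had an interaction of 1.46 ± 0.08, but its GW3965 effect alone (−0.11) did not pass. Herc6, a ligase of the ISG15 system, read 5.46 and 5.45, 7.12 and 7.16, 5.99 and 5.72, and 8.83 and 9.05 in the same order of groups (interaction 1.40 ± 0.14). Ifi44 rose by 1.95 with Dex, by 0.44 with GW3965 and by 2.78 with both (interaction 0.39 ± 0.12, adjusted p = 0.025). Its interaction no longer passed without the intensity trend (adjusted p = 0.067) or without vehicle array a (0.066), Dex array a (0.092), GW3965 array a (0.13) or Dex+GW3965 array b (0.12). Named after their values were seen, Isg15 rose by 3.77 with Dex and by 4.42 with Dex in GW3965-treated rats, and Ifi44l by 1.79 and 2.63. Ifgga2l1, an interferon-inducible GTPase gene outside the list and among the 12 largest upward interactions, had a Dex effect of −0.75 alone and 1.12 with GW3965.

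Other members fell short of the sum. Oas1a, a 2′-5′ oligoadenylate synthetase, read 5.99 and 5.85 in vehicle, 9.88 and 9.94 in Dex, 7.93 and 7.94 in GW3965, and 10.37 and 10.43 in both. The combined group was the highest, but the single effects summed to 6.00 and the combined effect was 4.48 (interaction −1.53 ± 0.09). On the linear scale the same gene lay above additivity, by 202 signal units (adjusted p = 0.0073), so its direction is set by the scale. Its neighbour in the family Oas1b stood above 5.49, the floor used here for dim signals (the mean of the array medians), only in the combined group, at 6.24 and 5.89, with the other 6 arrays between 4.02 and 4.33. With levels raised to that floor its interaction of 1.79 became 0.58. The probe sets of such close paralogs may share signal, and this was not tested.

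Promoters of these genes are shown because most of them rose with Dex alone and a known element can be read in them. The core of the interferon-stimulated response element, GAAA, then 2 bases of any kind, then GAAA, searched on both strands, were found in 20 of the 34 members with a RefSeq promoter and in 3.92% of all 33469 promoters. They were found in 11 of 16 members above the expectation, 5 of 7 below and 4 of 11 that did not pass. Among members described earlier, Rnf213 and Herc6 had no match in their windows, while Ifi44, Ifi44l, Oas1a and Oas1b had matches. The promoters of 2 members above (Ifi44l, Igtp) and 1 below (Oas1a) follow, 5′ to 3′ along the gene's strand, with matches in capitals. Windows lie in build GRCr8 at chr2:243328473-243328772 for Ifi44l, chr10:42874797-42875096 for Igtp and chr12:41330216-41330515 for Oas1a, all on the plus strand.
Ifi44l: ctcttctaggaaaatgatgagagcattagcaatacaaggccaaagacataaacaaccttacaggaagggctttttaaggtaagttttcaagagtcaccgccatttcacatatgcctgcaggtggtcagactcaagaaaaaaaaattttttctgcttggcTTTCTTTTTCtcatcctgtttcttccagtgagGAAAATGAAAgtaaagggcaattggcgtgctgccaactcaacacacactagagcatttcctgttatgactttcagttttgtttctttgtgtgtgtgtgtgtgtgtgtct
Igtp: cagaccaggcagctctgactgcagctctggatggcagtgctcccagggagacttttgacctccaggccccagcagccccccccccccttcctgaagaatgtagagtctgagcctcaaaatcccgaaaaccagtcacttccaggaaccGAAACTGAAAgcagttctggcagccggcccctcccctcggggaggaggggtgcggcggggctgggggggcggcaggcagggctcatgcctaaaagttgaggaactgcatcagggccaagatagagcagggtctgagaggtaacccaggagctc
Oas1a: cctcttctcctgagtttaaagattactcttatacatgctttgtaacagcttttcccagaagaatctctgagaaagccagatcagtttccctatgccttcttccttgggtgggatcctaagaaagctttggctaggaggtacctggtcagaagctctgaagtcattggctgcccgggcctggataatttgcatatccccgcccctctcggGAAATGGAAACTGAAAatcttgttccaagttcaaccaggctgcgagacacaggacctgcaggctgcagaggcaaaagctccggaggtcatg

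The known targets of LXR did not rise together with its agonist. Of 18 measured, GW3965 alone raised 3 (Abca1, Smpdl3a and Pltp) and lowered 9, against 5.9% and 15.9% of all genes. Against the additive expectation 9 lay above and 1 below, where 16.9% and 7.3% of all genes did, and 8 did not pass (median interaction 0.25). The count below was 3 without vehicle array b and 2 without Dex array a. Cyp7a1, which sets the pace of bile acid formation from cholesterol, read 10.58 and 10.65 in vehicle, 10.08 on both Dex arrays, 6.99 and 7.00 in GW3965, and 8.44 and 8.32 in both. GW3965 lowered it most, and the combined arrays lay between GW3965 and the other groups. The GW3965 effect was −3.62 alone and −1.70 with Dex, and the Dex effect turned from −0.53 to 1.38 (interaction 1.92 ± 0.08, adjusted p = 1.04e-11). Scd, the desaturase that makes monounsaturated fatty acids, read 13.07 and 12.998 in vehicle, 12.22 and 12.27 in Dex, 12.34 and 12.29 in GW3965, and 12.55 and 12.57 in both. Each compound alone lowered it, and each raised it in the presence of the other (interaction 1.04 ± 0.05).

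Abca1, the cholesterol efflux pump, was the member below. It read 7.57 and 7.87 in vehicle, 9.75 and 9.87 in Dex, 9.25 on both GW3965 arrays, and 9.18 on both combined arrays. The 3 treated groups lay close together and far above vehicle, and the combined group lay 0.63 below Dex (interaction −2.16 ± 0.10). Its 4 probe sets disagreed, however, with interactions of −1.51 for another and of 0.53 and 0.82 for the remaining pair. In that pair each compound alone lowered the level, Dex by 0.50 and 0.67 and GW3965 by 0.47 in each. The values given and the count of Abca1 as raised hold for the brightest probe set only. Abcg8, a subunit of the sterol exporter of the bile canaliculus, lay above the expectation (1.06 ± 0.23) but was dim in the Dex and combined groups, at 3.53 to 4.09 under the floor.

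Lipid synthesis lay mostly above the expectation, against 16.9% of all genes above and 7.3% below. Of 21 genes that build fatty acids and triglycerides, 15 lay above, 3 below and 3 did not pass, with a median interaction of 0.37. The median GW3965 effect was −0.37 alone and 0.11 with Dex. Acss2, which makes acetyl-CoA from acetate, read 10.56 and 10.58 in vehicle, 10.05 and 10.01 in Dex, 9.96 and 10.03 in GW3965, and 10.53 and 10.59 in both, so the combined arrays were back at the vehicle level. Gpam, the first step of glycerolipid synthesis, gave the same pattern with an interaction of 0.71 ± 0.11. Of 20 genes of cholesterol synthesis, 12 lay above and 2 below (median 0.32), and the median Dex effect was −0.65 alone and −0.19 with GW3965. Acat2 (0.82 ± 0.07), Tm7sf2 (0.93 ± 0.07) and Dhcr7 (0.76 ± 0.06) lay above. Lss, lanosterol synthase, lay below (−1.13 ± 0.09), with 7.78 and 7.97 in vehicle and 8.78 to 9.04 on the 6 treated arrays.

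Bile acid genes gave 13 of 21 above and 1 below, against 16.9% and 7.3% of all genes, with a median of 0.31. Slc10a2, the sodium-dependent bile acid transporter, was lowered by Dex by 1.68 alone and by 0.35 with GW3965. Cyp39a1, an oxysterol hydroxylase, had a Dex effect of −0.66 alone and 0.40 with GW3965. The member below was Slco1a4, an uptake transporter of organic anions. It read 11.13 and 11.19 in vehicle, 10.05 and 9.99 in Dex, 11.67 and 11.70 in GW3965, and 8.85 and 8.79 in both. GW3965 raised it alone and lowered it by 1.20 in Dex-treated rats, which left the combined group the lowest by far (interaction −1.72 ± 0.06, adjusted p = 2.24e-12).

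**Figure D4:**
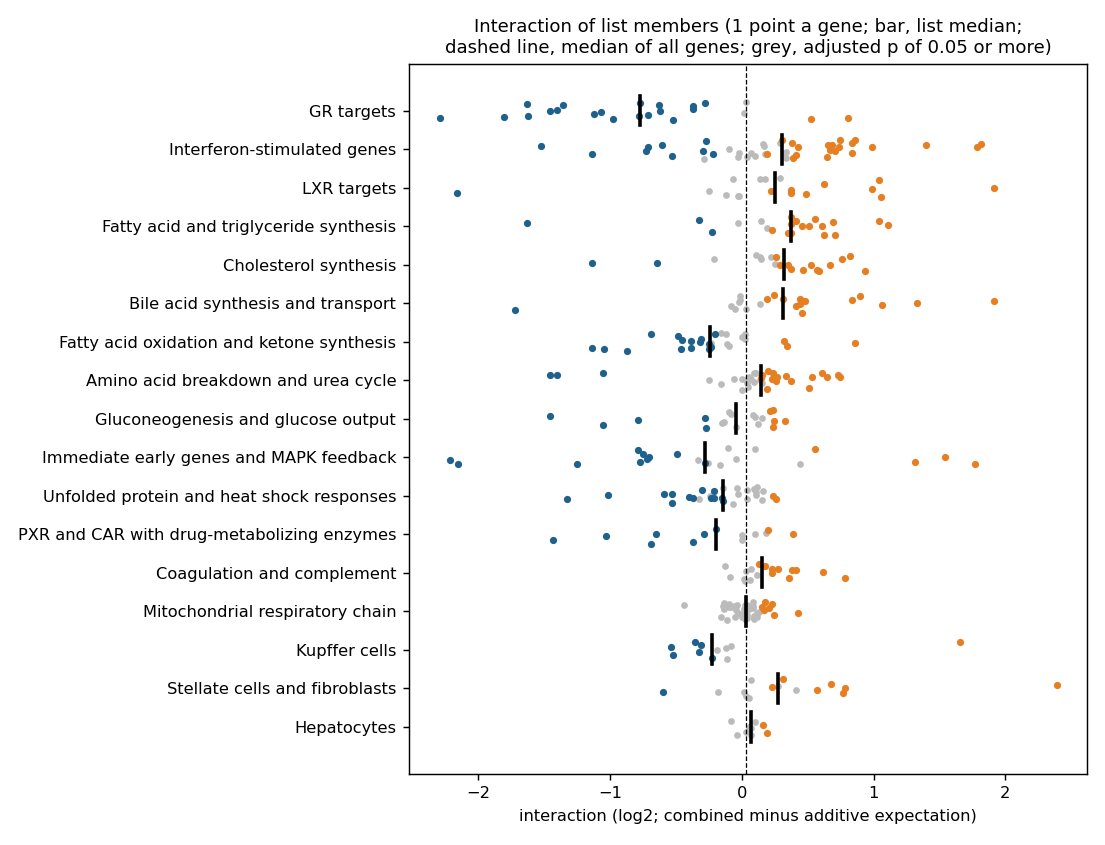
Interaction in log2 units (horizontal axis) for the members of 17 gene lists, 1 point a gene on its brightest probe set. Orange points passed above additivity, blue points passed below, grey points did not pass. The black bar is the list median and the dashed line the median over all 9829 genes, 0.03. GR targets have the lowest median, −0.77.

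Fatty acid oxidation ran the other way. Of 26 genes, 15 lay below and 3 above, against 7.3% and 16.9% of all genes, with a median of −0.24. GW3965 alone raised 16 of the 26 and lowered 1, against 5.9% and 15.9% of all genes, and the median GW3965 effect went from 0.20 alone to 0.05 with Dex. Eci1, an isomerase of β-oxidation, read 10.23 and 10.42 in vehicle, 9.92 and 9.94 in Dex, 11.55 and 11.56 in GW3965, and 10.04 and 10.0005 in both. The rise with GW3965 was absent from the Dex-treated rats, whose arrays all lay below vehicle (interaction −1.14 ± 0.07, adjusted p = 3.5e-09). Cyp4a1, an ω-hydroxylase and a target of PPARα, had a GW3965 effect of 0.90 alone and 0.03 with Dex. Pex11a of peroxisome division had a Dex effect of 1.64 alone and 0.59 with GW3965. Pdk4, a kinase that restrains glucose oxidation, was the largest of the 3 above (0.86 ± 0.08), being lowered by Dex by 1.43 alone and by 0.58 with GW3965.

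Immediate early genes, the fast transcriptional response to growth factors and stress, included some of the largest departures in both directions. Of 21 measured, 10 lay below and 4 above, against 7.3% and 16.9% of all genes, and 7 did not pass (median −0.28). Egr1, a zinc finger factor, read 8.05 and 8.14 in vehicle, 8.08 and 7.98 in Dex, 9.69 and 9.61 in GW3965, and 7.37 and 7.38 in both. Only the GW3965 arrays were raised, and the combined arrays were the lowest of the 8. The GW3965 effect was 1.56 alone and −0.66 with Dex (interaction −2.21 ± 0.09, adjusted p = 1.04e-11). Fosb rose with GW3965 alone, to 5.93 and 5.96 against 3.82 to 4.17 on the other arrays. Those lie under the floor, and with it the interaction of −2.15 became −0.45.

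The 4 above were the growth-related Myc and the MAP kinase feedback genes Dusp6, Ier5 and Spry1. Myc read 7.62 and 7.85 in vehicle, 5.74 on both Dex arrays, 7.15 and 7.14 in GW3965, and 6.92 and 6.93 in both. Dex lowered it by 1.99 alone, while its effect of −0.22 with GW3965 did not pass (interaction 1.77 ± 0.13). Dusp6, a phosphatase that turns off ERK, was lowered by 2.47 alone and by 0.93 with GW3965. Ccnd1, cyclin D1, was lowered by 2.44 alone and by 0.69 with GW3965 (interaction 1.75 ± 0.11). Other probe sets of Ccnd1 gave smaller interactions, 0.80 ± 0.15 and 0.85 ± 0.13, with Dex effects of −1.68 and −1.50 alone. Of 18 cell cycle and DNA replication genes, Ccnd1, Ccnd2 and Mcm6 lay above and Mcm7 below, against 16.9% and 7.3% of all genes. The others did not pass, and Mcm6 and Mcm7 lay close to the threshold (limma adjusted p = 0.05 and 0.039). The count below was 2 without vehicle array b or Dex+GW3965 array a, and Mcm7 was no longer called without any other single array.

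**Figure D5:**
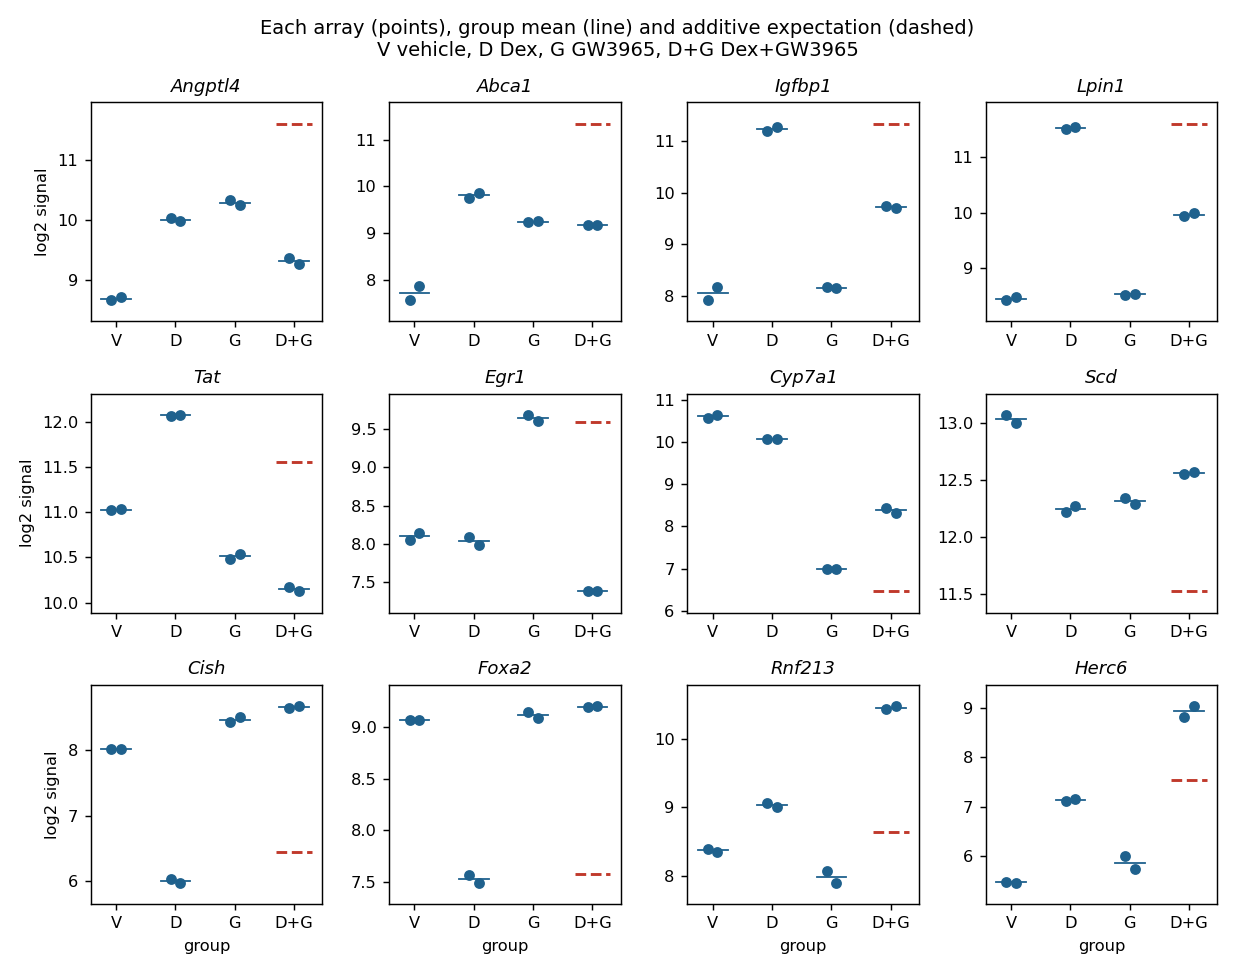
log2 signal (vertical axes, which do not start at 0) of 12 genes on each array, by group. Points are arrays, short lines are group means, and the dashed red line is the level at which the combined group would lie if effects were additive. In Angptl4, Abca1, Igfbp1, Lpin1, Tat and Egr1 the combined arrays lie below the dashed line, and in the other 6 genes above it.

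Cish, which encodes an inhibitor of cytokine signaling through STAT5, read 8.01 and 8.02 in vehicle, 6.03 and 5.98 in Dex, 8.42 and 8.504 in GW3965, and 8.64 and 8.67 in both. The Dex arrays stood far below the other 6, and the Dex effect was −2.01 alone and 0.19 with GW3965. The interaction was 2.20 ± 0.09 (adjusted p = 2.21e-11), and a second probe set gave 1.55 ± 0.11. Of 15 growth hormone and STAT5 targets, 5 lay above and 1 below, against 16.9% and 7.3% of all genes. The count above was 3 without vehicle array a, GW3965 array b or Dex+GW3965 array b, and the count below was 2 without Dex+GW3965 array a. The one below was Egfr, which was lowered by Dex by 1.05 alone and by 1.98 with GW3965 (interaction −0.93 ± 0.07). On the linear scale the departure of Egfr did not pass (adjusted p = 0.34).

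Foxa2 and Hhex, factors of liver identity, were likewise low with Dex alone. Foxa2 read 9.07 on both vehicle arrays, 7.56 and 7.49 in Dex, 9.15 and 9.09 in GW3965, and 9.19 and 9.20 in both, so that only the Dex group stood apart (interaction 1.62 ± 0.08, adjusted p = 7.43e-11). Hhex, a homeobox factor, read 10.96 and 10.91, 9.71 and 9.77, 11.40 and 11.34, and 11.49 and 11.48 in the same order (interaction 1.31 ± 0.06). Of 13 such factors 3 lay above and 2 below (Cebpb and Onecut1), against 16.9% and 7.3% of all genes. The other 8 did not pass. Without Dex array a or GW3965 array a, 1 lay below. Onecut1 (HNF6) had opposite single effects, −0.97 with Dex and 2.31 with GW3965, and an interaction of −0.39 ± 0.10.

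Enzymes that degrade amino acids or make urea lay above in 17 of 36 and below in 3 (median 0.14), against 16.9% and 7.3% of all genes. The 3 below were Tat, Sds and Got1, aspartate aminotransferase, which Dex raised by 2.21 alone and by 1.16 with GW3965. Above lay Cth (0.75 ± 0.07), the enzyme that makes cysteine from cystathionine, with both effects reversed. Gluconeogenesis showed no one direction. Of 19 genes, 5 lay above and 5 below, with a median of −0.04, and after quantile normalization 3 lay above and 7 below. Glucose-6-phosphatase is not among the 19, since its probe sets carry several symbols and such probe sets name no gene here. A probe set of that kind had a Dex effect of 1.473 alone, the value the study tabulated for this gene. Its Dex effect was −0.08 with GW3965 (interaction −1.56 ± 0.05). As deposited, the median Dex effect over the 19 genes was 0.47 alone and 0.43 with GW3965. Ppargc1a, a coactivator of gluconeogenesis, was raised by Dex by 0.92 alone, against 0.14 with GW3965 (interaction −0.78 ± 0.18). Pck1, the gluconeogenic carboxykinase, named after its value was seen, was raised by 0.65 and 0.37.

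Among drug-metabolizing and stress genes the direction differed between lists. Of 13 genes of PXR, CAR and their enzymes, 7 lay below and 2 above, against 7.3% and 16.9% of all genes. The count above fell to 1 without either Dex, GW3965 or Dex+GW3965 array. Por, the reductase that feeds electrons to cytochromes P450, was raised by Dex by 1.54 alone and by 0.51 with GW3965. Alas1, which starts heme synthesis, read 10.41 and 10.43 in vehicle, 10.19 and 10.11 in Dex, 10.34 and 10.28 in GW3965, and 9.37 and 9.34 in both, a fall of 0.27 with Dex and of 1.06 with both (interaction −0.69 ± 0.06). Cyp1a1, the enzyme induced through the Ah receptor, was raised by Dex from 7.36 and 7.48 to 11.40 and 11.45 and was lowered by GW3965 to 5.38 and 5.51. It was 1 of 3 below among 6 targets of that receptor. With both compounds it read 7.81 and 7.85, where additivity would give 9.45 (interaction −1.62 ± 0.10). Of 29 genes of the unfolded protein and heat shock responses, 13 lay below and 2 above, the latter falling to 1 without vehicle array a, either Dex array, GW3965 array a or Dex+GW3965 array b. Herpud1, of protein disposal from the endoplasmic reticulum, had a Dex effect of 1.83 alone and 0.82 with GW3965, and the chaperone Hspa1a had 0.91 and −0.42. Of 19 genes of oxidative stress and glutathione, 8 lay above and 1 below, and 5 and 4 after quantile normalization. The count below was 2 without vehicle array a or Dex array b.

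Large departures were also found in genes outside the lists. Fam111a, which encodes a protease linked to DNA replication, read 10.01 and 10.18 in Dex and 3.54 to 4.44 on the other 6 arrays, all under the floor. Its interaction was −6.64 ± 0.17 (adjusted p = 1.06e-13) and −4.60 with dim levels raised to the floor. Zfp354a, a zinc finger gene of kidney and liver, read 6.69 and 6.87 in vehicle, 11.28 and 11.30 in Dex, 6.52 and 6.40 in GW3965, and 8.65 and 8.55 in both (interaction −2.37 ± 0.10). On the upward side Pbsn, the prostate protein probasin, read 8.38 and 8.39 in vehicle, 6.72 and 6.70 in Dex, 5.22 and 5.27 in GW3965, and 7.80 and 7.72 in both. Each compound lowered it alone and raised it in the presence of the other, for the largest upward interaction among named genes, 4.19 ± 0.11 (adjusted p = 1.17e-13). Dnpep, an aspartyl aminopeptidase, was low only in GW3965, at 7.74 and 7.71 against 9.82 to 10.17 elsewhere. Cdh17, a cadherin, fell with either compound and rose with both (interaction 1.79 ± 0.07).

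A few class I major histocompatibility genes, named for their large downward departures, were low in vehicle. Genes of this family are highly polymorphic between animals. RT1-CE12 read 9.69 and 9.27 in vehicle and 11.73 to 11.85 on the 6 treated arrays (interaction −2.37 ± 0.12). RT1-N2 read 4.79 and 4.42 in vehicle and 8.37 to 9.27 elsewhere, with an interaction of −3.07 on the log2 scale and no passing departure on the linear scale (adjusted p = 0.18). RT1-T24-4 had the same order, 8.12 and 8.42 against 9.46 to 9.69. These genes do not stand for the family. Of 26 antigen presentation genes 6 lay above and 6 below, against 16.9% and 7.3% of all genes. Dex alone raised 8 of the 26 and lowered 11, against 18% and 26.5% of all genes.

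Markers of other liver cells moved with some of these results, and their part in them was not tested. Of 11 Kupffer cell genes, 6 lay below and 1 above, against 7.3% and 16.9% of all genes, and 4 did not pass. The mean level of the 11 was 8.87 in vehicle, 8.55 in Dex, 9.08 in GW3965 and 8.65 in both. Cd14 (−0.52 ± 0.07), Cd5l (−0.54 ± 0.09) and Clec4f (−0.36 ± 0.07) lay below. Lyz2, lysozyme, was the exception, with 11.07 and 11.05 in vehicle, 10.29 and 10.32 in Dex, 9.67 and 9.70 in GW3965, and 10.62 and 10.56 in both, and both of its effects reversed (interaction 1.65 ± 0.06). The neutrophil genes S100a8 and S100a9 were both above (1.82 ± 0.18 and 2.77 ± 0.17). S100a9 read 7.22 and 7.25 in vehicle, 5.48 and 5.22 in Dex, 5.16 and 4.88 in GW3965, and 5.91 and 5.90 in both. The Dex and GW3965 levels of S100a9 thus lay under the floor of 5.49. S100a8 stood above the floor in vehicle only, and with the floor its interaction was 0.39.

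Stellate cell and fibroblast genes gave 7 of 15 above and 1 below (median 0.28), against 16.9% and 7.3% of all genes. The mean level of the 15 was 8.03 in vehicle, 7.52 in Dex, 7.67 in GW3965 and 7.56 in both. Lum, lumican of the collagen matrix, was highest in vehicle at 6.57 and 6.44 and lowest in Dex at 4.22 and 3.44. Its interaction was 2.39 ± 0.25, and 0.98 with the floor. Of 4 erythrocyte genes, Hbb (−1.08 ± 0.05) and Alas2 (−1.57 ± 0.09) lay below, both lowest in the combined group, and Ahsp lay above (0.69 ± 0.14). The 5 T and NK cell genes did not pass, and 2 of 10 sinusoidal endothelial genes did, both below. Of 9 hepatocyte genes 2 passed, both above (median 0.07). That count was 1 without either Dex array, GW3965 array b or Dex+GW3965 array b, 1 lay below without vehicle array a, and after quantile normalization 1 lay above and 1 below.

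Of the 14 genes that the study tabulated from these arrays, 12 were measured here, 7 above and 5 below additivity. Kitlg did not pass the filter on low values and glucose-6-phosphatase has only probe sets with several symbols. Since the genes were chosen on these samples, the counts are not independent evidence. The chemokine Cxcl12 read 11.60 and 11.69 in vehicle, 9.27 and 9.30 in Dex, 11.92 and 11.91 in GW3965, and 10.08 and 10.01 in both (interaction 0.48 ± 0.06). On the linear scale its departure was −229 signal units and did not pass (adjusted p = 0.14). Other probe sets of Cxcl12 had interactions of 0.96 and 0.85. Their linear departures were 507 and 64 signal units, of which only the first passed. The chemokine Ccl9 lay above (interaction 0.60). Ccl6, a related chemokine that the study did not tabulate, had −0.02 ± 0.06 (adjusted p = 0.89). Il33 was lowered by Dex by 2.40 alone and by 1.97 with GW3965. On a second probe set of Il33 the Dex effects were −1.80 and −1.58, and the interaction (0.22 ± 0.13) did not pass. Pfkfb1, of the fructose bisphosphate switch in glycolysis, was raised by 2.24 and 1.68, and Slc2a5, a fructose transporter, by 1.16 and 1.69.

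The receptors departed little. Nr1h3 (0.14 ± 0.07), Nr1h2 (−0.13 ± 0.10) and Rxra (−0.24 ± 0.10) did not pass. Nr3c1 read 9.04 and 8.90 in vehicle, 8.25 and 8.20 in Dex, 9.31 and 9.21 in GW3965, and 8.78 and 8.87 in both. Dex lowered it less with GW3965 than alone on the brightest probe set (interaction 0.31 ± 0.09, adjusted p = 0.015), which did not pass after quantile normalization (0.09), without the intensity trend (0.076), on the linear scale (0.31), or without vehicle array a (0.067), Dex array b (0.062), GW3965 array b (0.093) or Dex+GW3965 array b (0.07). Its second probe set gave −0.29 ± 0.16 and did not pass.

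Some groups were close to additive or changed with the scaling. Of 42 genes of the mitochondrial respiratory chain, 35 did not pass, although Dex alone raised 37, against 18% of all genes. The 7 that passed lay above, against 16.9% of all genes. Without GW3965 array b or Dex+GW3965 array b 3 lay above, without either Dex array 4, and without vehicle array b 5 lay below. After quantile normalization 1 lay above and 8 below, so no direction can be given for them. Of 18 coagulation and complement genes, 10 lay above and 8 did not pass, with C5 (0.78 ± 0.06) and C6 (0.62 ± 0.07) the largest. After quantile normalization the counts were 7 and 1, and without the intensity trend 5 lay above. Of 18 acute phase genes, 7 lay above and 1 below, and 4 and 2 after quantile normalization. Without Dex array a 4 lay above, and without vehicle array b 2 lay below. Hamp, the iron hormone hepcidin, was the largest of them (1.24 ± 0.08), and A2m, which Dex raised by 3.41 alone and by 2.69 with GW3965, was the one below (−0.73 ± 0.07).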

How the data were processed

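Hepatic RNA was hybridised to 8 Affymetrix rat expression arrays, 2 for each of 4 groups. Each deposited value is the log2 signal of a probe set, between 2.50 and 14.95, and their array medians lie between 5.48 and 5.52. MAS5 is named, with no version, in the submitters' processing notes, and the step that put the arrays on a common scale is not given in the sources used here. Control probe sets (57) were left out. A group-means model with an intensity trend was fitted by limma 3.58.1 in R 4.3.3 (residual df 4, prior df 12.7), with Benjamini-Hochberg adjustment over the 16253 kept probe sets and a threshold of 0.05. A departure counts as synergy, antagonism or reversal only where the contrasts that define it pass too. The scripts were tested on simulated data. Gene symbols come from the platform annotation, and 20758 of 20826 single symbols matched a RefSeq gene by identifier. Each gene was read on its brightest kept probe set, and probe sets with several symbols (332) or none (3029) name no gene.

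Named genes are the 12 largest departures in each direction with the same sign in all 16 choices of 1 array a group, the 6 largest in each synergy and reversal class, up to 4 of the largest passing members of each list, the genes of the study's table with the related Ccl6, and the receptors. A few list members outside this rule were named after their values were seen. The lists and the classes were chosen with earlier results of these data known. The number of arrays limits the precision. The labels do not state that a and b pair arrays across groups. The a minus b differences correlated between −0.23 and 0.08, which cannot settle it with 1 pair a group. Alternatives covered normalization, filtering, the variance trend, a floor, the linear scale, the methods' test, a replicate block and each array left out.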

Additional observations from a re-analysis of the deposited data

Results flagged for a closer look

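The Dex effect differed between rats with and without GW3965, by the test of the difference itself, for 2571 probe sets in the upward direction and 1127 in the downward direction. The Dex effect changed sign at 374 probe sets and the GW3965 effect at 594. Causes of these differences were not tested, and a difference between the animals of a group cannot be told apart from them.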

How the results depend on the processing

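Without the intensity trend, synergy fell to 323 probe sets and the GW3965 reversal to 308. The methods' test matched arrays across groups by letter, which gave 2 values a probe set. It called 226 above and 147 below additivity. None of its 2160 probe sets at its unadjusted threshold passed Benjamini-Hochberg adjustment. With a replicate block the counts were 2482 above and 1061 below. With single arrays left out, the counts ranged from 1829 to 2454 above, 758 to 1229 below, 339 to 490 for synergy, 1535 to 1979 for Dex antagonism, 706 to 1109 for GW3965 antagonism, 225 to 391 for the Dex reversal and 330 to 647 for the GW3965 reversal. The lowest came without Dex array b for Dex antagonism, without Dex+GW3965 array b for synergy and without GW3965 array b for the rest. The share of upward departures was 69.5% as deposited, 53.4% after quantile normalization and 76.6% with array medians subtracted. Ccl6, which did not pass, turned from −0.02 to 0.020 with medians subtracted and ranged from −0.065 to 0.035 with single arrays left out, above 0 without Dex array b and without GW3965 array a. Where effects add on the linear scale, Cyp2c12 turned to −72.9, Cxcl12 to −229 and Oas1a to 202 signal units, and only the last passed. Without the trend, upward calls fell from 17 to 8 for amino acid breakdown and from 10 to 5 for coagulation, and downward calls from 13 to 8 for the unfolded protein response. The causes of these shifts were not tested.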

Other observations

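Probe sets with no gene symbol in the platform annotation held departures as large as those of named genes. The following were chosen after their values were seen. One such probe set read 5.90 and 6.06 in vehicle, 7.84 and 7.93 in Dex, 8.21 and 8.02 in GW3965, and 6.34 and 6.04 in both (interaction −3.83 ± 0.15, limma adjusted p = 6.44e-12). Either compound raised it, and with both it was back near vehicle. Another had the same shape, with 8.59 and 8.66, 9.82 and 9.92, 10.57 and 10.55, and 9.26 and 9.23 (interaction −2.56 ± 0.07).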
